A study of Mus musculus with 6 samples.

Results

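The genes described here are 39 genes of DNA replication and of the G1/S transition of the cell cycle, measured by RNA sequencing in sarcoma cells whose periostin gene Postn was silenced. They were taken by gene symbol from the 35727 genes of the deposited count table, in a list made with earlier results of these data known. All 39 matched 1 row each, and all were among the 12819 genes with enough counts to be tested. The comparison asks how the mRNAs of the replication machinery in tumour cells differ when periostin is reduced, in a study of periostin, sarcoma growth and tumour macrophages.

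The tested libraries, called shPostn, are 3 libraries of cells that carry a viral hairpin against Postn; sample titles call them Postn-KO, while the protocol describes a hairpin. The other 3 libraries, called shSCR and titled Postn-WT, carry a scrambled hairpin. Both groups share 1 in-house mouse line of undifferentiated pleomorphic sarcoma, p53 KO Ccne1 OE, made from mesenchymal stem cells of female C57/Bl6 p53KO mice. That line overexpresses cyclin E1 (Ccne1) with a red fluorescent tracer (RFP) from a retroviral vector and had been passaged through female wild-type C57/Bl6 recipients. Cyclin E1 is itself a driver of the G1/S transition, so by the description of the line both groups carry that drive along with the loss of p53. The cells were transplanted, and RFP+ tumour cells were sorted out of the tumours for RNA. Ages, the strain of the final recipients and the number of tumours are not given, nor is a further line per hairpin or another hairpin against Postn. An effect of reduced periostin and a chance difference between the lines therefore cannot be told apart, and p-values measure only the spread between these libraries, which may be technical.

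Before a cell copies its DNA it licenses origins of replication: the origin recognition complex with Cdc6 and Cdt1 loads a ring of Mcm2 to Mcm7 proteins, the core of the replicative helicase, onto DNA in G1. At the G1/S transition cyclin E with its kinase inactivates the retinoblastoma protein, E2F factors are released, and they transcribe most of the genes named here. The helicase is then activated by Cdc45 and the GINS complex, and polymerases copy the DNA behind it while nucleotide-making enzymes and histone chaperones supply the new strand. These mRNAs are high in proliferating tissue and in most tumours.

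Promoters of 5 of the genes are printed because E2F factors are the shared regulators in this textbook scheme. The set holds a gene that rose (Rrm2), a gene that fell (E2f2) and 3 helicase genes with high counts (Mcm5, Mcm6 and Mcm2). Each window runs from 250 bases before to 50 bases after a RefSeq start on GRCm38.p6, the deposited data's mm10 build, and is written 5′ to 3′. Capitals mark 2 kinds of match on either strand: an E2F-type site (TTTCCCGC, TTTCGCGC, TTTGCCGC or TTTGGCGC) and the NF-Y box CCAAT.
Rrm2 promoter, chr12:24708004-24708303, plus strand: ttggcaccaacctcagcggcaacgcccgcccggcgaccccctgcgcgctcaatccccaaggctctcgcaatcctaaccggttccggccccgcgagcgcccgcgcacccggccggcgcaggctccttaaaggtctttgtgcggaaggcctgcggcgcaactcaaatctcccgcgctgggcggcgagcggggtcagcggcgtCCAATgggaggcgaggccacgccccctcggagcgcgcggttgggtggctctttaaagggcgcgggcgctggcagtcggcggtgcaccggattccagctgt
E2f2 promoter, chr4:136172024-136172323, plus strand: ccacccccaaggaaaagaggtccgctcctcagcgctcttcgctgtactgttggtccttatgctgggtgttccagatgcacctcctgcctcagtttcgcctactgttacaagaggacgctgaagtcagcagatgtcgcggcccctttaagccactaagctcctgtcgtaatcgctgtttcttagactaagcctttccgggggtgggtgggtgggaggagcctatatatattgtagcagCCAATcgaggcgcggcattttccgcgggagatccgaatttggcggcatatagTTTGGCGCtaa
Mcm5 promoter, chr8:75109259-75109558, plus strand: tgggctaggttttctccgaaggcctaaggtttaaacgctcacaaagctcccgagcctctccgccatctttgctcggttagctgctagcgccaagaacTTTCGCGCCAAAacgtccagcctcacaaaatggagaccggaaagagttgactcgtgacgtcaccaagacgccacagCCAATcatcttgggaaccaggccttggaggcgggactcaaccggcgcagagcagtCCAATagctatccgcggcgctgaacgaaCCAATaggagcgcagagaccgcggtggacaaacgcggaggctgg
Mcm6 promoter, chr1:128359656-128359955, minus strand: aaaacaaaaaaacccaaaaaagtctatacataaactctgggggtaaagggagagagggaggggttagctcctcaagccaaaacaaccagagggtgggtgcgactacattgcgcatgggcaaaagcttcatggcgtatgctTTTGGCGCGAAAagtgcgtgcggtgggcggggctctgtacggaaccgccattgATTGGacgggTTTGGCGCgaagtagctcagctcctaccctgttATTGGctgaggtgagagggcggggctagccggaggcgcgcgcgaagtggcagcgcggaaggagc
Mcm2 promoter, chr6:88898731-88899030, minus strand: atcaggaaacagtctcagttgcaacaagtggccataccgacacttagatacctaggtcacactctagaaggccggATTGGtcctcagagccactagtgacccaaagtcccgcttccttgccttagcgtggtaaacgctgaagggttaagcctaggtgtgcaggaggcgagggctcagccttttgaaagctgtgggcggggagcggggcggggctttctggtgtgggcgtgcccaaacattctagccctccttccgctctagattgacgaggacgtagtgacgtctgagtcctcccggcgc

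The E2F-type letters stood once in the E2f2 window, 40 bases after the start, and not in the windows of Rrm2 and Mcm2. Mcm5 and Mcm6 held pairs of E2F-type matches on opposite strands that overlap each other and so share letters, at 153 and 110 bases before the start, and Mcm6 held another at 47 bases before it. Over all members, 32 of 39 had a window in the RefSeq table, and 13 of these 32 genes held an E2F-type match. By window this was 34.2% of 38 member windows, against 2.26% of all 32851 promoter windows. CCAAT boxes stood in 63.2% of member windows and in 37.4% of all windows. The 13 genes with an E2F-type match had a median log2 fold change (shPostn over shSCR) of −0.13 and the 19 without had one of −0.14. A match is a description of letters and not of a bound site.

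Deposited counts summed to between 19603269 and 19931734 per shPostn library and between 19847860 and 20376554 per shSCR library. Levels are given as CPM, counts scaled to a common library size with TMM factors. Postn measured 217, 471 and 639 CPM in shPostn, against 4097, 3602 and 3225 CPM in shSCR, a log2 fold change of −3.04 (SE 0.41, edgeR adjusted p = 0.0125). Its adjusted p was 0.0532 without shSCR replicate 1, 0.0542 without shSCR replicate 2 and 0.0592 with the replicate number as a block. Ccne1 had a mean of 17.4 ± 2.16 CPM in shPostn and 17.0 ± 2.03 CPM in shSCR (SD, n = 3 each; log2 fold change 0.03). Trp53, the p53 gene, had a mean of 118 ± 12.04 CPM in shPostn and 121 ± 1.98 CPM in shSCR (SD, n = 3 per group; log2 fold change −0.03). These values do not by themselves show the described overexpression or knockout, as no library of cells without them was measured. Which allele or vector the reads came from was not tested. All 10 mesenchymal markers checked against the labelled cell type were measured in the 6 libraries. The library of shPostn replicate 3 stood apart: 12 macrophage genes summed to 1052 CPM there, against 50.5 and 114 CPM in the other shPostn libraries and 69.3 to 218 CPM in shSCR. The 11 pan-leukocyte genes other than Arhgdib, which these cells themselves express, summed to 334 CPM there and to 34.5 to 86.4 CPM in the other libraries. None of these macrophage or leukocyte genes was called by edgeR, with 1 leukocyte gene at an unadjusted p of 0.05, and none was at 0 in all libraries. The 8 endothelial genes, of which 3 had enough counts for the test, summed to 6.31, 9.15 and 21.1 CPM in shPostn, against 47.9, 57.7 and 45.3 CPM in shSCR, and Eng among them fell. Eng made up most of these sums: the other 7 genes summed to 1.39, 1.36 and 6.59 CPM in shPostn, against 2.56, 4.25 and 4.67 CPM in shSCR, with overlapping groups. The part of these markers in the results below was not tested. The 9 T cell genes summed to at most 4.40 CPM in any library. In a bulk library fewer cycling cells and less replication mRNA per cell cannot be told apart.

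Silencing of Postn went with few changes in the replication genes. Of the 39, Rrm2 rose, E2f2 and Pole fell, and 36 did not pass the test, so that 7.69% were called against 10.1% of all genes tested. By direction, 1 member rose (4.61% of all genes did) and 2 fell (5.53% of all genes did). The share called is thus near the background. At an unadjusted p of 0.05 there were 7 members, or 17.9% against 27% of all genes, and 6 of the 7 were lower, which is 15.4% of members against 13.5% of all genes.

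The members leaned to slightly lower values in shPostn. Their median log2 fold change was −0.11, a 0.925-fold level, with quartiles of −0.22 and −0.03, against a median of 0.01 over all genes tested with quartiles of −0.16 and 0.18. In 31 of 39 (79.5%) the log2 fold change was below 0, as in 48.4% of all genes. The libraries of the groups did not overlap at 13 members, or 33.3%, against 33.6% of all genes. The 3 shPostn libraries lay below all shSCR libraries at 12 of them, or 30.8%, against 17% of all genes, and above them at 1 member, or 2.56%, against 16.6% of all genes. These counts describe the list and carry no test. Without shPostn replicate 3 the median was −0.07 with 25 genes below 0, and without shSCR replicate 2 it was −0.06 with 24 genes below 0.

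**Figure D1:**
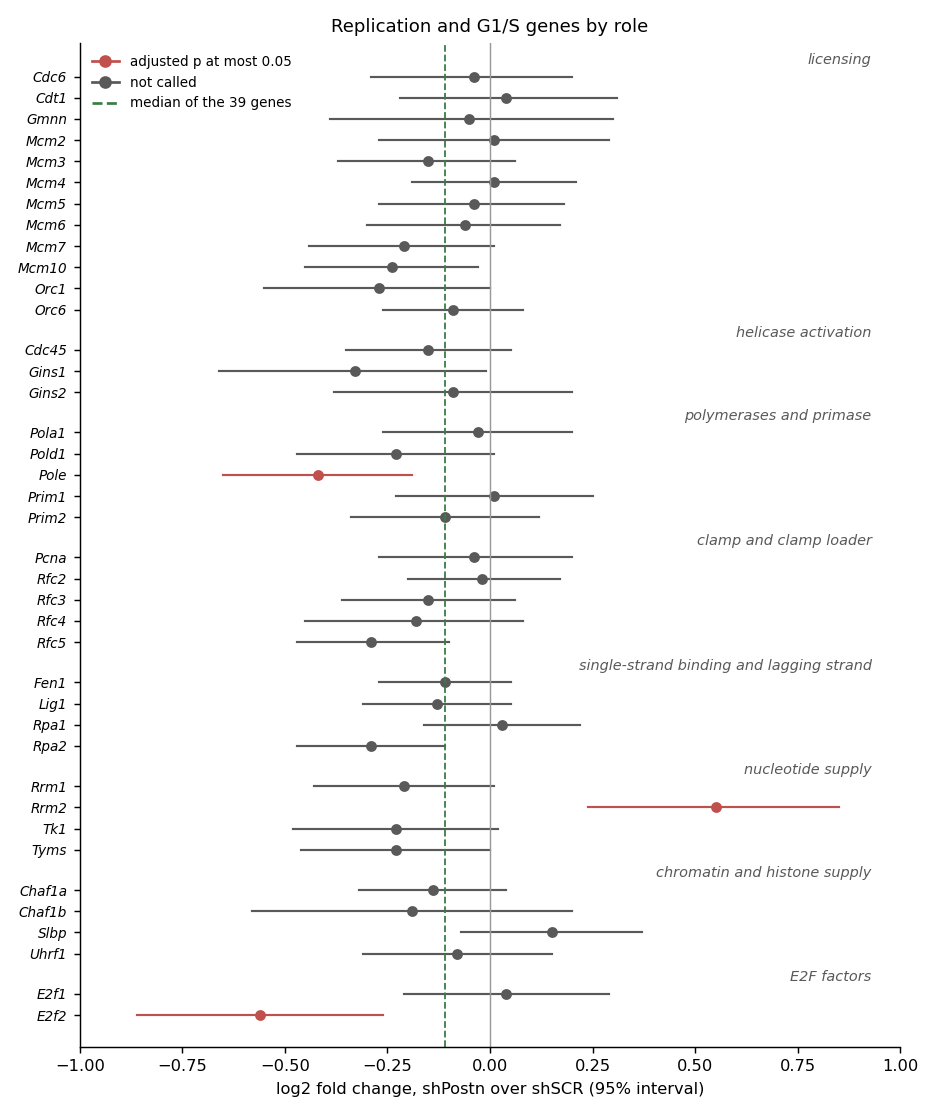
Log2 fold change of each of the 39 genes, shPostn over shSCR, with its 95% interval from the edgeR fit, grouped by role; the dashed line is their median of −0.11. Rrm2 (0.55) stands to the right, Pole (−0.42) and E2f2 (−0.56) to the left, and the other 36 lie between −0.33 and 0.15.

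The lean was uneven over the libraries. shPostn replicate 3 was the lowest of the 6 libraries at 24 members (61.5%), against 22% of all genes tested. shSCR replicate 2 was the highest of the 6 at 31 members (79.5%), against 18.4% of all genes. The members together summed to 3116, 2963 and 2675 CPM in shPostn, against 3017, 3332 and 2809 CPM in shSCR, so the groups overlapped. Around each gene's own mean, the median member sat at 0.03, −0.03 and −0.16 (log2) in shPostn replicates 1 to 3 and at 0.05, 0.21 and −0.05 in shSCR replicates 1 to 3. The same medians over all genes tested lay between −0.01 and 0. The library with the lowest replication genes, shPostn replicate 3, was also the library with the most macrophage RNA. It also had the most Postn of the shPostn libraries, 639 CPM against 217 and 471 CPM. The highest, shSCR replicate 2, had 155 CPM of macrophage genes, between the values of the other shSCR libraries. Whether either feature is linked to the replication genes was not tested. With the pan-leukocyte mean as a covariate the median log2 fold change of members was −0.11. In that fit 29 members were below 0, in place of 31, and the same 3 genes were called. The leukocyte genes other than Arhgdib summed to 334 CPM in shPostn replicate 3 and at most 86.4 CPM elsewhere. The covariate therefore cannot tell their part from that of this 1 library.

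**Figure D2:**
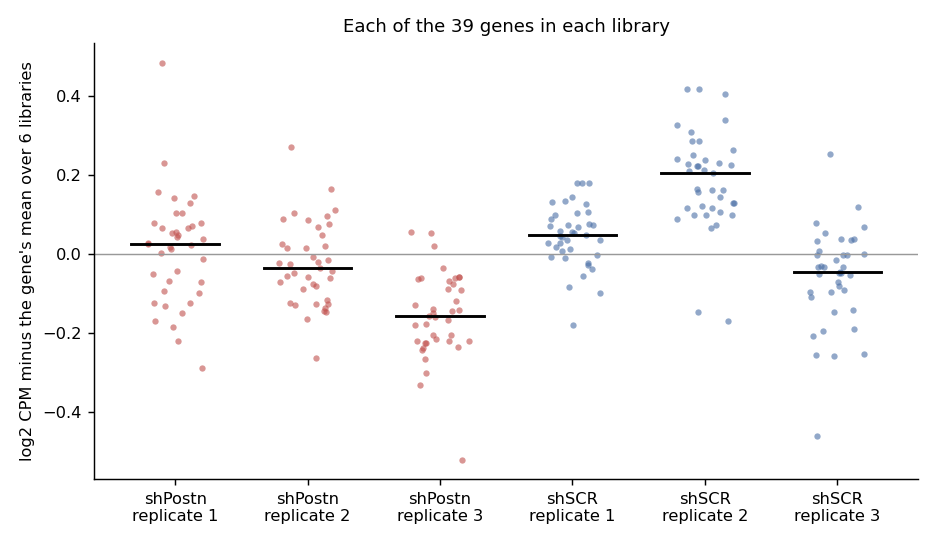
Each point is 1 of the 39 genes in 1 library, as its log2 CPM minus that gene's mean over the 6 libraries; the horizontal spread within a library has no meaning and the black line is the median. The median is lowest in shPostn replicate 3 (−0.16) and highest in shSCR replicate 2 (0.21), and the other 4 libraries lie between −0.05 and 0.05.

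Origin licensing was close to level between the groups. None of its 12 genes was called by edgeR, 1 of them passing an unadjusted p of 0.05, and their median log2 fold change was −0.05. Mcm2, a subunit of the helicase ring and the licensing gene with the most counts, measured 267, 253 and 206 CPM in shPostn, against 235, 267 and 217 CPM in shSCR. The groups overlapped almost fully, with a log2 fold change of 0.01 (SE 0.12, edgeR adjusted p = 0.957) and a 95% interval from −0.27 to 0.29. Mcm4 measured 125, 116 and 104 CPM in shPostn, against 114, 122 and 107 CPM in shSCR, again with no separation. Over Mcm2 to Mcm7 together the lowest interval bound was −0.44 and the highest 0.29, that is 0.739-fold and 1.22-fold. Mcm7 gave the lower of these bounds: it had a mean of 127 ± 8.92 CPM in shPostn and 147 ± 16.5 CPM in shSCR (SD, n = 3 each) with libraries that do not overlap, but a log2 fold change of −0.21 and an edgeR adjusted p of 0.213. Counts summed over the 6 ring subunits came to 1093, 1016 and 906 CPM in shPostn, against 1031, 1158 and 968 CPM in shSCR.

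The loading factors Cdt1 and Cdc6 differed as little. Cdt1, which brings the ring to the origin, had a log2 fold change of 0.04, its inhibitor geminin (Gmnn) had −0.05 and Cdc6 had −0.04, each with overlapping groups. Orc1, the origin recognition subunit that is degraded as S phase begins in human cells, measured 8.004, 9.55 and 9.19 CPM in shPostn, against 10.8, 11.5 and 10.1 CPM in shSCR. All shPostn values were below all shSCR values, with a log2 fold change of −0.27 (SE 0.12) and an edgeR adjusted p of 0.187. Orc6 (−0.09) and the later-acting Mcm10 (−0.24, adjusted p = 0.133 by edgeR) also missed the threshold.

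Helicase activation genes had 0 called of 3, with 1 at an unadjusted p of 0.05. Gins1, a subunit of the GINS complex that joins the Mcm ring with Cdc45, measured 8.57, 8.49 and 8.14 CPM in shPostn, against 9.45, 12.6 and 9.75 CPM in shSCR. The shPostn libraries lay below the shSCR libraries, and the log2 fold change of −0.33 (SE 0.14) had an edgeR adjusted p of 0.177. The SD of the shPostn libraries was 2.70% of their mean, smaller than the counting error of 7.83% at the lowest Gins1 count. Without shSCR replicate 2 the log2 fold change of Gins1 was −0.19 with an edgeR adjusted p of 0.467. Cdc45 measured 39.7, 40.3 and 36.7 CPM in shPostn, against 41.7, 47.8 and 40.0 CPM in shSCR, with overlapping groups and a log2 fold change of −0.15. Gins2 had one of −0.09.

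Among polymerase and primase genes Pole fell. Pole encodes the catalytic subunit of DNA polymerase epsilon, which synthesises the leading strand (ENSMUSG00000007080; GRCm38 chromosome 5, 110286306 to 110337474, plus strand). It measured 59.6, 58.9 and 53.5 CPM in shPostn, against 72.3, 87.6 and 69.7 CPM in shSCR. Every shPostn library was below every shSCR library, shSCR replicate 2 being the highest. The group means were 57.3 ± 3.29 CPM in shPostn and 76.5 ± 9.65 CPM in shSCR (SD, n = 3 each). The log2 fold change was −0.42 (SE 0.10, edgeR adjusted p = 0.0414). Without shSCR replicate 2 it was −0.31 with an adjusted p of 0.102. Its adjusted p was between 0.0705 and 0.0954 without any 1 of shSCR replicates 1 and 3 and shPostn replicates 1 and 2. It was 0.0457 without shPostn replicate 3. Over all genes the share called also fell, to between 2.36% and 7.23% from 10.1%, without any 1 library but shPostn replicate 3.

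Other genes of DNA synthesis moved less. Pold1, the catalytic subunit of polymerase delta on the lagging strand, measured 77.4, 77.1 and 68.5 CPM in shPostn, against 83.2, 99.4 and 78.4 CPM in shSCR. Its groups did not overlap either, but the log2 fold change was −0.23 (SE 0.10) with an edgeR adjusted p of 0.207. The catalytic subunit gene of polymerase alpha, Pola1 (−0.03), and the primase genes Prim1 (0.01) and Prim2 (−0.11) had overlapping groups. Primase lays the RNA primer that polymerase alpha extends.

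The sliding clamp gene Pcna, which tethers polymerases to DNA, was close to level. It measured 154, 134 and 126 CPM in shPostn, against 138, 156 and 130 CPM in shSCR, with a log2 fold change of −0.04 (SE 0.10) and a 95% interval from −0.27 to 0.20. The clamp loader genes Rfc2 (−0.02), Rfc3 (−0.15), Rfc4 (−0.18) and Rfc5 (−0.29) had log2 fold changes below 0. Rfc5 measured 36.0, 35.4 and 35.4 CPM in shPostn, against 42.0, 47.9 and 40.3 CPM in shSCR. Its groups did not overlap and its edgeR adjusted p of 0.0655 lay just outside the threshold, so none of the 5 clamp and loader genes was called and 1 had an unadjusted p under 0.05. Rfc5 overlaps Wsb2, and Rfc4 overlaps Eif4a2, on the opposite strand; both neighbours had more counts, and reads of such pairs may be shared.

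Single-strand binding and lagging-strand genes had 0 called of 4 by edgeR, with 1 at an unadjusted p of 0.05. That gene was Rpa2, a subunit of the complex that coats single-stranded DNA at the fork, with 35.1, 38.7 and 34.6 CPM in shPostn, against 43.6, 47.2 and 41.8 CPM in shSCR. The libraries separated, with a log2 fold change of −0.29 (SE 0.08) and an edgeR adjusted p of 0.0572. DESeq2 gave Rpa2 an adjusted p of 0.0379 and upper quartile scaling one of 0.0464, both past the threshold. With chromosome medians taken out Rpa2, which lies on chromosome 4, had a log2 fold change of −0.15 and an edgeR adjusted p of 0.316. Its partner Rpa1 measured 135, 138 and 126 CPM in shPostn, against 131, 141 and 118 CPM in shSCR, with a log2 fold change of 0.03 and overlapping groups. The flap endonuclease gene Fen1 (−0.11) and the ligase gene Lig1 (−0.13), which finish lagging-strand fragments, were not called.

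**Figure D3:**
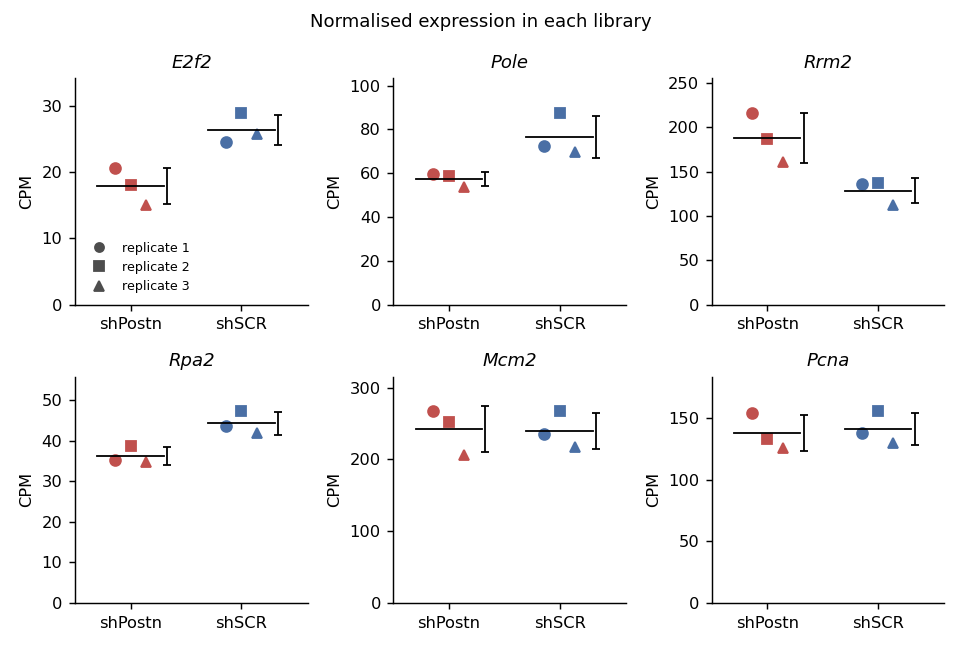
CPM of 6 genes in each library, with shPostn left of shSCR; symbols are replicates, the bar is the mean and the whisker the SD of 3 libraries. The shPostn points lie below all shSCR points for E2f2, Pole and Rpa2 and above them for Rrm2, and the groups overlap for Mcm2 and Pcna.

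Nucleotide supply held the gene that rose. Rrm2 encodes the small, cell-cycle-regulated subunit of ribonucleotide reductase, the enzyme that makes deoxyribonucleotides (ENSMUSG00000020649; GRCm38 chromosome 12, 24708241 to 24714146, plus strand). It measured 216, 187 and 160 CPM in shPostn, against 136, 137 and 112 CPM in shSCR. All shPostn libraries were above all shSCR libraries, with means of 188 ± 28.0 CPM in shPostn and 129 ± 14.2 CPM in shSCR (SD, n = 3 each). The log2 fold change was 0.55 (SE 0.13, edgeR adjusted p = 0.0416). The gene of its partner, the large subunit Rrm1, measured 195, 173 and 160 CPM in shPostn, against 201, 221 and 189 CPM in shSCR. Rrm1 thus had a log2 fold change of −0.21 (SE 0.09, edgeR adjusted p = 0.208), on the other side of 0 from Rrm2. Thymidylate synthase (Tyms) and thymidine kinase (Tk1), which supply thymidine nucleotides, each had a log2 fold change of −0.23 and adjusted p-values of 0.190 and 0.222 by edgeR.

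The rise of Rrm2 went with a rise of the chromosome it lies on. The 468 tested genes of chromosome 12 had a median log2 fold change of 0.39, with 167 called higher and 8 lower, and the 25 tested genes within 5 Mb of Rrm2 had a median of 0.33. Once each chromosome's median was taken out of the model, Rrm2 had a log2 fold change of 0.16 and an edgeR adjusted p of 0.521. It was the only member on chromosome 12. The 3 other replication genes listed there, none of them called, also had positive log2 fold changes, Pole2 with 0.46, Lin52 with 0.42 and E2f6 with 0.10. Leaving out any 1 library but shPostn replicate 3 gave Rrm2 an edgeR adjusted p between 0.0797 and 0.128. The share called over all genes also fell in those fits, to between 2.36% and 7.23% from 10.1%.

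Of the E2F factors, E2f2 fell and E2f1 was level. E2f2 is an activating E2F that binds the retinoblastoma protein (ENSMUSG00000018983; GRCm38 chromosome 4, 136172394 to 136196057, plus strand). It measured 20.6, 18.04 and 15.1 CPM in shPostn, against 24.5, 29.0 and 25.8 CPM in shSCR. Every shPostn library was below every shSCR library, and the means were 17.9 ± 2.77 CPM in shPostn and 26.5 ± 2.28 CPM in shSCR (SD, n = 3 each). The log2 fold change of −0.56 (SE 0.13) had an edgeR adjusted p of 0.0366. E2f1, the best-known activating E2F, measured 82.3, 77.9 and 73.6 CPM in shPostn, against 80.6, 83.1 and 64.1 CPM in shSCR. Its log2 fold change was 0.04 (SE 0.11, edgeR adjusted p = 0.848) with a 95% interval from −0.21 to 0.29.

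E2f2 also lies on a chromosome with a shift. The 780 tested genes of chromosome 4 had a median log2 fold change of −0.15, with 114 called lower and 18 higher, and the 127 within 5 Mb of E2f2 had a median of −0.16. With chromosome medians taken out, E2f2 had −0.42 and an edgeR adjusted p of 0.107. The other members on chromosome 4, Orc1 (−0.27) and Rpa2 (−0.29), lay beside neighbours with medians of −0.20 and −0.17. All 3 members there had shPostn libraries below all shSCR libraries, as 17% of all genes did. So did 6 of the 8 other replication genes listed on chromosome 4 (75%), which had a median log2 fold change of −0.24. The share was not counted over all tested genes of chromosome 4, whose median is also below 0. Pole, on chromosome 5, had 101 tested neighbours with a median of 0.04. With chromosome medians out its log2 fold change was −0.44 and its adjusted p 0.0531, when 640 genes in all were called in place of 1300. For E2f2 the edgeR adjusted p was between 0.0816 and 0.147 without any 1 of the shSCR libraries or shPostn replicate 2. The highest came without shSCR replicate 2. In those fits 2.36% to 4.89% of all genes were called, against 10.1% with all libraries. The adjusted p of E2f2 was 0.028 without shPostn replicate 1 and 0.0238 without shPostn replicate 3. Leaving out chromosomes 4 and 12, the 35 remaining members had a median of −0.11, as the full list did, with 28 below 0 and Pole alone called.

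**Figure D4:**
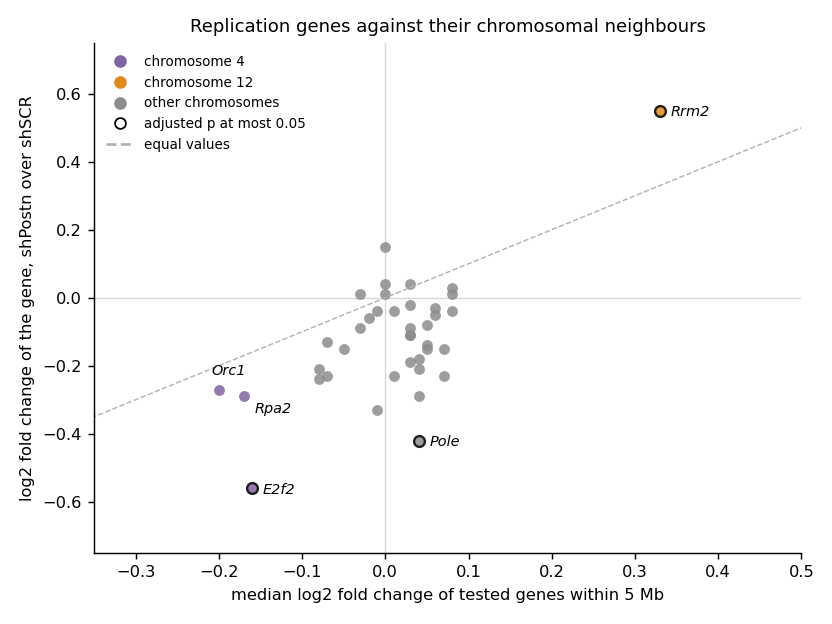
Log2 fold change of each of the 39 genes against the median log2 fold change of the tested genes within 5 Mb of it; ringed points passed the test and the dashed line marks equal values. Rrm2 on chromosome 12 lies at 0.33 and 0.55, E2f2 on chromosome 4 at −0.16 and −0.56, and Pole, at 0.04 and −0.42, has neighbours near 0.

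Chromatin and histone supply had 0 called of 4 genes by edgeR and 0 at an unadjusted p of 0.05. Uhrf1, which brings the maintenance DNA methyltransferase to new DNA, measured 161, 171 and 136 CPM in shPostn, against 166, 175 and 155 CPM in shSCR (log2 fold change −0.08). Chaf1b, a subunit of the histone chaperone CAF-1, measured 21.5, 19.3 and 16.9 CPM in shPostn, against 23.1, 25.8 and 17.1 CPM in shSCR. It had a log2 fold change of −0.19 with a 95% interval from −0.58 to 0.20, and CAF-1's larger subunit gene Chaf1a had −0.14. Slbp, whose protein binds the stem-loop of histone mRNAs, had the highest value among the 36 members not called, with 66.4, 60.9 and 52.2 CPM in shPostn, against 55.2, 51.1 and 55.4 CPM in shSCR (log2 fold change 0.15, edgeR adjusted p = 0.364).

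The 36 members not called could still hold modest differences. Their 95% intervals reached from −0.66 (Gins1, 0.633-fold) to 0.37 (Slbp, 1.29-fold). In simulated data of this size and spread, with 200 genes changed, the test recovered 38.5% of 1.5-fold changes and 70% of 2-fold changes. The real data gave 1300 calls, against 84 and 149 in those simulations, so the unadjusted p needed to pass was less strict. The simulated shares therefore do not give the size of change detectable here, and Pole was called at 0.749-fold. The lowest count of any member in any library was 156, at Orc1, which carries a counting error of 8.01%. The coefficient of variation between the libraries of a group had a median of 7.03% in shPostn and 8.74% in shSCR over the members. For Orc1 and Gins1, the members with the fewest counts, the counting error at the lowest count (8.01% and 7.83%) was thus about as large as that median.

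Per transcript length, Pcna had the highest level and Orc1 the lowest. In CPM per kilobase of the principal transcript, Pcna averaged 90.8 ± 9.54 in shPostn and 93.1 ± 8.59 in shSCR, and Orc1 2.96 ± 0.269 in shPostn and 3.58 ± 0.238 in shSCR (SD, n = 3 each). Rrm2 stood next to Pcna in shPostn at 85.6 ± 12.8 CPM per kilobase, and behind Pcna, Mcm6 and Mcm2 in shSCR at 58.7 ± 6.49. Its subunit partner Rrm1 averaged 43.997 ± 4.42 in shPostn and 50.9 ± 4.11 in shSCR on the same scale. The ring subunits, which assemble in equal numbers, ranged from 32.0 ± 2.95 (Mcm4) to 73.9 ± 9.23 (Mcm6) CPM per kilobase in shPostn and from 31.9 ± 1.99 (Mcm4) to 77.2 ± 4.07 (Mcm6) in shSCR. In shPostn, neighbours in the order Pcna, Rrm2, Mcm6 and Mcm2 differed by less than the larger of their SDs. In shSCR that held for Mcm6 and Mcm2, but not for Pcna and Mcm6. The transcript assumed matters for 5 genes: with its longest transcript Mcm6 would be at 49.4 in shPostn and 51.6 CPM per kilobase in shSCR.

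**Figure D5:**
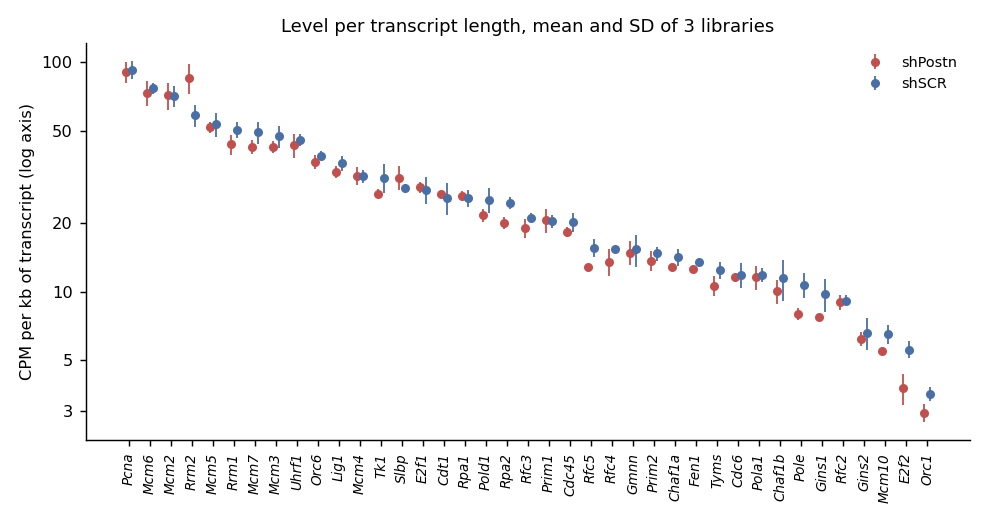
Level of each of the 39 genes in CPM per kilobase of principal transcript on a log axis, with the mean and SD of 3 shPostn and 3 shSCR libraries, ordered by the shSCR mean. Levels run from 93.1 (Pcna) to 3.58 (Orc1) in shSCR, and Rrm2 at 85.6 in shPostn stands above its shSCR value.

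Outside the 39, another 88 genes of replication and G1/S control, listed from textbook knowledge, were all tested. Of these 1 rose, 5 fell and 82 did not pass, so 6.82% were called against the 10.1% of all genes. Their median log2 fold change was −0.07. The shPostn libraries lay below all shSCR libraries at 24 of the 88 (27.3%, against 17% of all genes) and above at 11 (12.5%, against 16.6%). By role the medians ran from −0.18 at 16 licensing and origin genes to 0.00 at 12 S-phase chromatin genes. Of those 16, 13 were below 0 and 9 (56%) had shPostn below all shSCR libraries. At an unadjusted edgeR p of 0.05 there were 8 (50%, against 27% of all genes), 7 of them lower. E2f8, an atypical E2F that represses E2F targets, fell: it measured 27.4, 28.2 and 23.2 CPM in shPostn, against 40.5, 44.6 and 33.9 CPM in shSCR (log2 fold change −0.60, SE 0.12, edgeR adjusted p = 0.0277). Mtbp, a partner of Ticrr in origin firing, fell with 35.1, 31.8 and 28.5 CPM in shPostn, against 43.5, 48.4 and 44.2 CPM in shSCR (−0.51, adjusted p = 0.0176). The origin recognition gene Orc2 (−0.37), the nuclease-helicase gene Dna2 (−0.50) and the histone-binding Rbbp4 (−0.28) fell as well. Top1, the topoisomerase that relaxes DNA ahead of the fork, rose with 129, 129 and 122 CPM in shPostn, against 108, 93.5 and 107 CPM in shSCR (0.30, adjusted p = 0.0425). All 6 calls were lost without shSCR replicate 2 (edgeR adjusted p from 0.0886 to 0.160). The same held without shSCR replicate 1 (0.0595 to 0.115) and without shPostn replicate 2 (0.0609 to 0.113). All but that of E2f8 were lost without shSCR replicate 3. Over all genes the share called fell as well, from 10.1% to 2.36%, 3.30%, 4.89% and 3.10% in these fits, in the order named. With chromosome medians taken out Mtbp and Orc2 kept their calls. E2f8 (−0.54, adjusted p = 0.0533), Dna2 (−0.51, 0.0563) and Top1 (0.28, 0.0759) lost theirs at nearly the same fold change, and Rbbp4, on chromosome 4, had −0.13 with an adjusted p of 0.233.

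Genes of mitosis, the later step of the cell cycle, were not called but leaned lower as the members did. Of the 16 listed, 14 (87.5%) had a log2 fold change below 0, as 48.4% of all genes did. The shPostn libraries lay below all shSCR libraries at 5 (31%, against 17% of all genes) and above them at 0. Of 16 mitosis genes listed, such as Mki67 and Plk1, 0 were called by edgeR and 4 had an unadjusted p under 0.05, all lower, or 25% against 27% of all genes in either direction and 13.5% of all genes lower. Their median log2 fold change was −0.16, and they summed to 1519, 1557 and 1305 CPM in shPostn, against 1553, 1715 and 1546 CPM in shSCR. shPostn replicate 3 again had the lowest sum and shSCR replicate 2 the highest.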

How the data were processed

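The 6 libraries are strand-specific poly(A) RNA, sequenced on the DNBSEQ platform by BGI per the labels. The authors deposited estimated counts per Ensembl gene. The submitters' processing notes name Salmon and the build mm10, with neither a version nor an annotation, and how strand was set is likewise not stated. All values were whole numbers, so rounding changed nothing. Without knowledge of how shared reads were split, overlapping genes and copies stay uncertain, but Pcna-ps2 held 0.0478% of the Pcna counts and the other 2 pseudogenes looked up held 0. Symbols and positions matched for 35493 IDs, from GENCODE M21 on GRCm38; promoter sequences and starts are from RefSeq (GRCm38.p6).

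Counts were fitted in R 4.3.3 with edgeR 4.0.16 (limma 3.58.1): genes kept by filterByExpr (minimum count 10), TMM scaling, a robust quasi-likelihood F-test of shPostn against shSCR, and Benjamini-Hochberg adjustment over all 12819 genes with a threshold of 0.05. The SE is the log2 fold change over the square root of F. There was 1 comparison with no covariate; the labels give no batch. The fit was tested on simulated data with 200 changed genes. It made 7 false calls among 84 at 1.5-fold, 9 among 149 at 2-fold and 17 among 182 at 4-fold. Each of these shares was above the threshold of 0.05. Alternatives were DESeq2 1.42.0, limma-voom, other scalings and filters, chromosome medians taken out of the offsets, a covariate for pan-leukocyte genes, a replicate block, and each library left out. Principal transcripts are APPRIS principal ones. The 5 Mb neighbour window and the transcript lengths were chosen after values were seen.

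The members and lists were chosen with earlier results of these data known. Named were Postn, Ccne1 and Trp53, the called members, in each role the member with the most counts and the one with the largest change, and the called genes of the wider list; further members were named after their values were seen. Figures used Python 3.11.15 and matplotlib 3.10.9.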

Additional observations from a re-analysis of the deposited data

How the results depend on the processing

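The number of members called was 3 or 4 under the 3 other scalings, both other filters, DESeq2, limma-voom and the leukocyte covariate, 1 with the replicate block (Rrm2) and 0 with chromosome medians taken out. With 1 library left out it ranged from 0 to 3. The median log2 fold change of members stayed below 0 throughout, between −0.17 and −0.06 with 1 library left out and between −0.13 and −0.11 otherwise. Calls over all genes numbered 1973 with DESeq2, 735 with the replicate block, 2098 with the leukocyte covariate and 640 with chromosome medians taken out, and 307 to 2220 with 1 library left out. Of the 88 other replication genes, 10 were called with DESeq2, 3 with the replicate block, 10 with the leukocyte covariate and 2 with chromosome medians taken out, and 0 to 10 with 1 library left out. The causes were not tested; the highest of the left-out counts over all genes and over the 88 came without shPostn replicate 3, the lowest over all genes without shSCR replicate 2. Deviations from the group means correlated at −0.06, −0.0864 and −0.458 between same-numbered libraries of the groups. Between libraries of unlike number they correlated at −0.386 to 0.433. Deviations in groups of 3 sum to 0, so these values cannot decide whether the replicate numbers pair the libraries. Under the block E2f2 had an edgeR adjusted p of 0.0669 and Pole one of 0.0503.

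Sign changes met only genes that were not called. With 1 library left out the log2 fold change ranged from −0.06 to 0.13 for Ccne1, −0.08 to 0.05 for Trp53, −0.07 to 0.11 for E2f1, −0.15 to 0.01 for Uhrf1, −0.12 to 0.04 for Pcna, −0.06 to 0.12 for Mcm2 and −0.03 to 0.09 for Rpa1. It was −0.02 for Ccne1 with the leukocyte covariate, −0.01 for Mcm2 with upper quartile factors and −0.05 for Rpa1 with chromosome medians taken out. At the members with the fewest counts, Orc1 and Gins1, the counting error was about as large as the median spread between libraries, so depth limits what can be seen there.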
